A study of Homo sapiens with 23 samples.

Results

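The 10 genes studied here write, read or remove DNA methylation. *DNMT1*, *DNMT3A*, *DNMT3B*, *UHRF1*, *TET1*, *TET2*, *TET3*, *TDG*, *MBD2* and *MBD4* were followed across 5 HCT116 cell lines. The genes were chosen by name for their role, with earlier results of these data known. Each symbol matched a single Ensembl identifier among the 57875 genes listed in every sample. All 10 passed the filter on low counts, as did 22842 genes in all. The lines were wild-type HCT116, an epithelial line from a human colorectal carcinoma, and lines labelled AGO1-/-, AGO2-/-, AGO1-/- with AGO2-/-, and AGO1-/- with AGO2-/- and AGO3-/-, here called *AGO1* knockout cells, *AGO2* knockout cells and so on by the genes lost (*AGO1/2*, *AGO1/2/3*). AGO proteins hold the microRNAs that pair with messenger RNAs, and the study asked how steady state RNA levels change when they are lost. The 4 knockout lines were made by CRISPR editing of HCT116 cells, each genotype is represented by 1 line, and all were grown in the same medium without a further treatment. RNAseq was done on 3 samples per line, 15 in all, so that genotype and line cannot be told apart.

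DNA methylation is placed on cytosines before guanines. *DNMT3A* and *DNMT3B* set new methyl marks, and *DNMT1*, guided by the hemimethylated DNA reader *UHRF1*, copies them to the new strand after replication. The TET dioxygenases oxidize methylcytosine, and the glycosylase *TDG* excises the oxidized bases so that base excision repair can restore cytosine. *MBD4* is a glycosylase that removes the thymine left by deaminated methylcytosine, and *MBD2* reads methylated DNA and recruits a repressor complex. In colon tumours this machinery is known for the silencing of methylated promoters.

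Several of these genes are known targets of the miR-29 family, whose 3 mature guide strands are shown because they share the same seed (bases 2 to 8, in capitals). They are the RefSeq sequences on GRCh38.p14. The guides are encoded at chr7:130876748-130876769 for miR-29a, chr7:130877467-130877489 and chr1:207802450-207802472 for miR-29b, and chr1:207801865-207801886 for miR-29c, all on the minus strand.
hsa-miR-29a-3p: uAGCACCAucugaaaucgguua
hsa-miR-29b-3p: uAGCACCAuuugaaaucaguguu
hsa-miR-29c-3p: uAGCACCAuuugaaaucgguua

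The letters TGGTGCT, the complement of that seed, were searched on the sense strand of the longest 3′-UTR that GENCODE v44 gives each protein-coding gene. A match followed by A is called an 8-base match. Among 14640 protein-coding genes tested, 17.1% held at least 1 match and 3.74% an 8-base match. *TET3* held 10 matches in 6000 bases, 3 of them 8-base matches, and no other of these 14640 genes held 10 or more. *DNMT3A* held 4, *TET1* 3 and *TDG* 3, while *TET2* and *DNMT3B* each held 1. *TET2* held 4 matches in the shorter 3′-UTR of its canonical transcript, and the other 5 of these genes had the same number in both. *DNMT1*, *UHRF1*, *MBD2* and *MBD4* held 0. These letters describe the annotated RNA and were not tested as sites of binding. The AGO2 crosslinking samples of the study were not analysed here.

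The matches printed here are the 8-base matches of *TET3*, *TDG* and *DNMT3B* and the 3 matches of *TET1*. They are examples from genes that rose (*TET1*, *TET3* and *TDG*) or fell (*DNMT3B*) in *AGO1/2/3* knockout cells. *TET2*, which also rose and holds a match, is not among them. The seed match is in capitals, with the A that makes an 8-base match, and all lie on the plus strand of GRCh38. Those of *TET3* are at chr2:74105410-74105432, chr2:74105969-74105991 and chr2:74106633-74106655, those of *TET1* at chr10:68692082-68692104, chr10:68692199-68692221 and chr10:68693337-68693359, that of *TDG* at chr12:103988139-103988161 and that of *DNMT3B* at chr20:32809090-32809112.
TET3 match 1: ttctcacaaaataacTGGTGCTA
TET3 match 2: atagtctaaataaaaTGGTGCTA
TET3 match 3: aggctgctttttagtTGGTGCTA
TET1 match 1: tagaatcactcagttTGGTGCTt
TET1 match 2: actctacacagcttcTGGTGCTt
TET1 match 3: gtatggaaaacctaaTGGTGCTt
TDG match: ctaatgagttttccaTGGTGCTA
DNMT3B match: ttttactcttcttacTGGTGCTA

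Between 27709971 and 45271146 estimated counts were assigned to genes per sample. Levels are given as CPM (counts scaled to a common library size after TMM normalization), as the value in each sample followed by the mean ± SD. The lines were compared by log2 change (the log2 of the fold change from the model) with edgeR's quasi-likelihood test, and a gene was called when its Benjamini-Hochberg adjusted p over all genes tested was at or under 0.05. The second wild-type sample stood apart. Its summed level of 14 proliferation genes was 1349 CPM against 3108 and 3055 in the other wild-type samples. Of the 14 genes, 14 had their lowest wild-type value there and 10 their lowest of all 15 samples. The study's methods call the replicates biological, but the labels do not say whether they came from separate cultures, and the p-values then measure the spread between these samples, which may be technical. *AGO1* RNA was lower in every line labelled as lacking it (log2 changes of -1.89, -1.84 and -2.01) and *AGO3* RNA in *AGO1/2/3* knockout cells (-1.12). *AGO2* RNA was lower in *AGO2* knockout cells (-0.51), not called in *AGO1/2* (-0.26) and higher in *AGO1/2/3* knockout cells (0.40), so that RNA level alone does not show its loss. Of the epithelial markers that fit the labelled cell type, *KRT8* was called higher in *AGO1/2/3* knockout cells (0.41, a call lost without the second wild-type sample) while *CDH1* (-3.51) and *EPCAM* (-1.74) fell. The 5 markers of leukocytes, endothelium, monocytes and fibroblasts (*PTPRC*, *PECAM1*, *CD14*, *DCN* and *LUM*) summed to between 2.34 and 3.98 CPM in all samples.

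In *AGO1/2/3* knockout cells 8 of the 10 genes were called higher and 1 lower, where 20.3% of all genes tested were called higher and 19.8% lower (40.1% in all). All 3 TET genes, *TDG*, *MBD2*, *MBD4*, *DNMT1* and *UHRF1* rose, *DNMT3B* fell, and *DNMT3A* had a log2 change of 0.00. The median log2 change of the 10 was 0.64, against -0.01 over all genes tested. In these bulk samples fewer cells that express a gene and less of its RNA per cell cannot be told apart. Without the second wild-type sample 5 of the 10 were called higher, namely the 3 TET genes, *TDG* and *MBD2*.

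**Figure D1:**
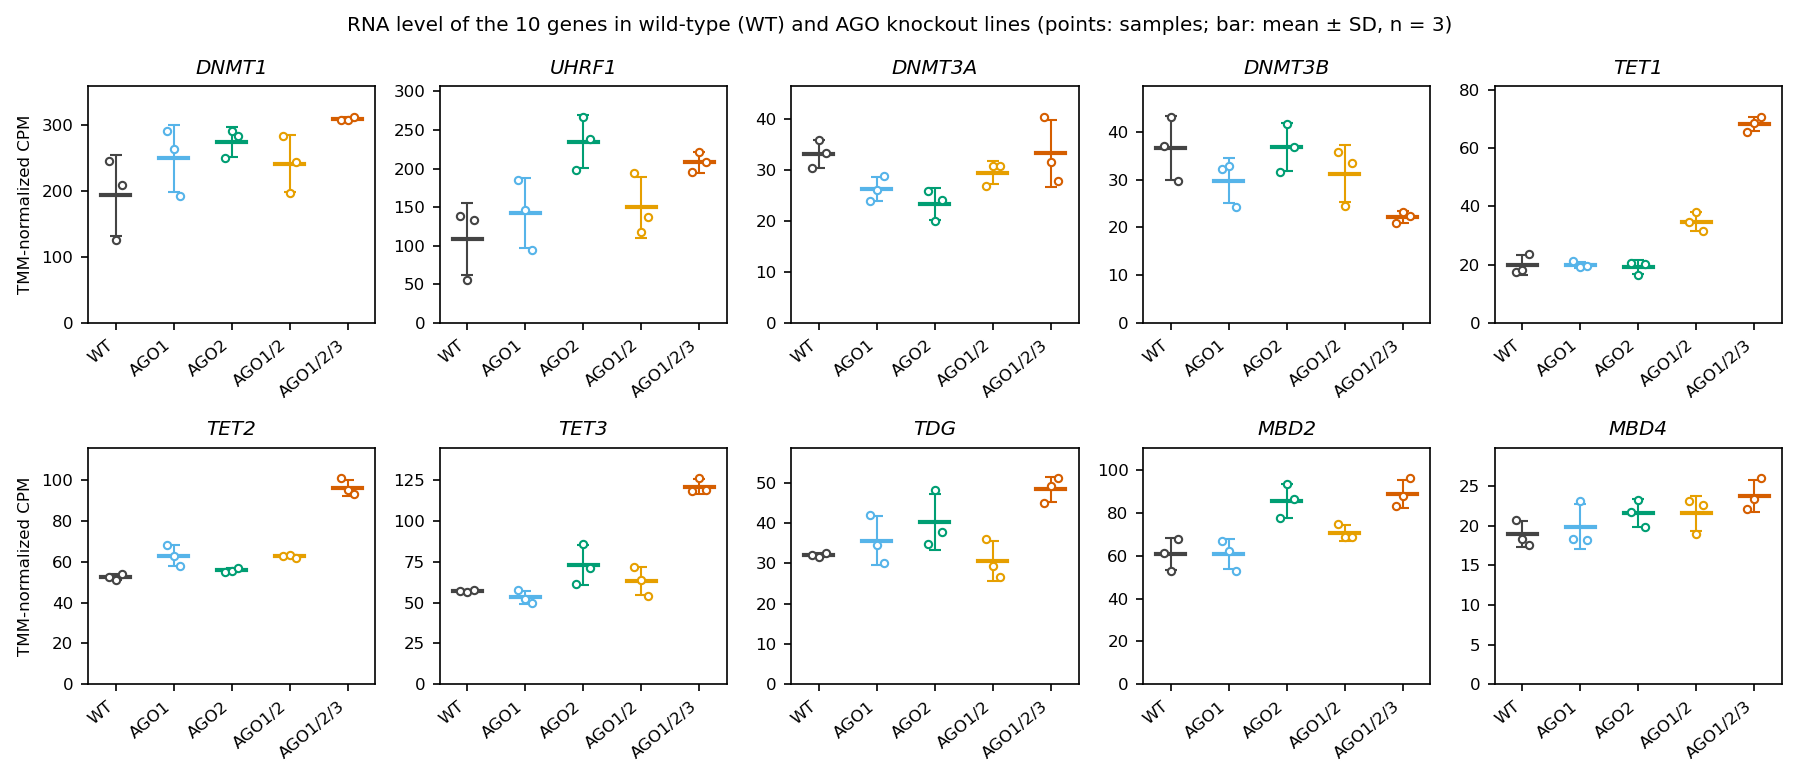
Level of each of the 10 genes in CPM (vertical axis, from 0, with its own scale per gene) in the 5 lines, with a point per sample and a bar at the mean ± SD (n = 3). The mean of *TET1* is 19.9 CPM in wild-type and *AGO1* and 19.1 in *AGO2* knockout cells, 34.8 in *AGO1/2* and 68.4 in *AGO1/2/3* knockout cells, while *DNMT3B* is lowest in *AGO1/2/3* knockout cells.

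*TET1*, a dioxygenase with a CpG-binding domain, lies on chromosome 10 from 68560337 to 68694487 (plus strand, ENSG00000138336). It was measured at 17.6, 18.2 and 23.7 CPM in wild-type cells (19.9 ± 3.36, SD, n = 3), at 21.1, 19.2 and 19.4 CPM in *AGO1* knockout cells, and at 20.6, 16.4 and 20.3 CPM in *AGO2* knockout cells. In *AGO1/2* knockout cells the samples were at 34.8, 38.0 and 31.6 CPM (34.8 ± 3.22, SD, n = 3), and in *AGO1/2/3* knockout cells at 65.7, 68.6 and 70.8 CPM (68.4 ± 2.52, SD, n = 3). The single knockouts overlapped wild-type cells, whereas every *AGO1/2* sample lay above them and every *AGO1/2/3* sample above those. The log2 change against wild-type cells was 0.81 in *AGO1/2* knockout cells (SE 0.12, adjusted p = 0.000387) and 1.78 in *AGO1/2/3* knockout cells (SE 0.13, adjusted p = 4.74e-08), a 3.44-fold rise. The step from *AGO1/2* to *AGO1/2/3* knockout cells, 0.97, passed the same edgeR test (adjusted p = 4.24e-05). For the single knockouts the 95% interval of the log2 change ran from -0.24 to 0.25 in *AGO1* and from -0.30 to 0.19 in *AGO2* knockout cells.

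*TET3*, the dioxygenase known for oxidizing the paternal genome in the zygote, lies on chromosome 2 from 73984910 to 74108176 (plus strand, ENSG00000187605). Wild-type samples were at 57.3, 56.6 and 57.6 CPM (57.2 ± 0.508, SD, n = 3) and *AGO1/2/3* knockout samples at 118, 126 and 119 CPM (121 ± 4.50, SD, n = 3). *AGO1* knockout cells had 57.6, 52.1 and 49.6 CPM, *AGO2* knockout cells 61.5, 86.1 and 71.0 CPM, and *AGO1/2* knockout cells 71.7, 63.5 and 54.2 CPM. The *AGO1/2/3* samples were above all others, and the *AGO2* samples spread most. The log2 change in *AGO1/2/3* knockout cells was 1.08 (SE 0.12, adjusted p = 5.87e-06 from edgeR). It exceeded each other knockout line as well, by 0.94 over *AGO1/2* (adjusted p = 6.56e-05), 1.19 over *AGO1* and 0.73 over *AGO2* knockout cells. In *AGO2* knockout cells the change from wild type was 0.35 (adjusted p = 0.057, edgeR), which passed the threshold under 5 of 22 alternative settings.

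*TET2*, which lacks the DNA-binding domain of its relatives and is often mutated in blood cancers, lies on chromosome 4 from 105145875 to 105279816 (plus strand, ENSG00000168769). It rose from 52.5, 51.3 and 54.1 CPM in wild-type cells (52.6 ± 1.45, SD, n = 3) to 101, 95.2 and 93.2 CPM in *AGO1/2/3* knockout cells (96.3 ± 3.83, SD, n = 3), with a log2 change of 0.87 (SE 0.08, adjusted p = 7.82e-07 from edgeR). The other lines lay close together, at 68.2, 62.8 and 57.9 CPM without *AGO1*, 55.3, 55.5 and 57.2 without *AGO2*, and 63.1, 63.3 and 61.7 CPM without both. All 9 of these samples lay above the wild-type range. The change of 0.25 in *AGO1/2* knockout cells was called (adjusted p = 0.0447) and that of 0.26 in *AGO1* knockout cells was not (0.0622), with the same edgeR test. The first of these calls was lost under 20 of 23 alternative settings, so that *AGO1/2* knockout cells rested on *TET1* alone in those.

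**Figure D2:**
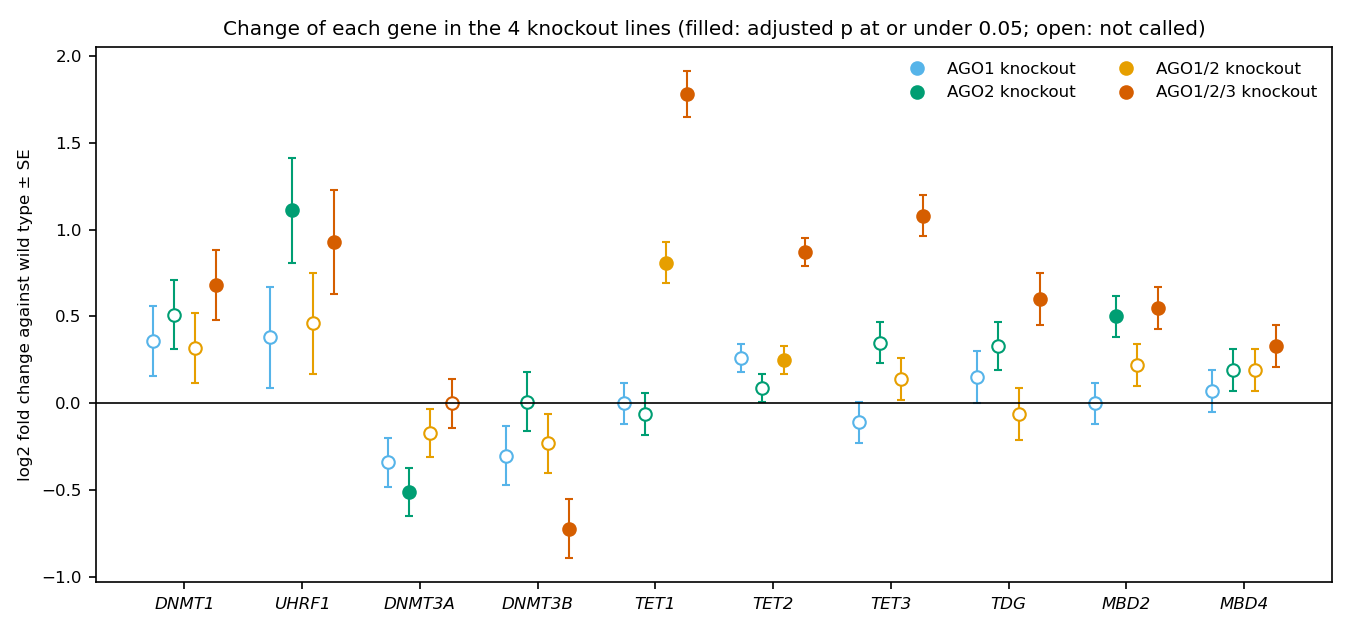
Log2 fold change of each gene against wild-type cells (vertical axis) in the 4 knockout lines, with bars of 1 standard error (SE) from the edgeR model, filled points for called genes and open points for the rest. The *AGO1/2/3* points of *TET1* (1.78), *TET3* (1.08) and *TET2* (0.87) lie above those of the other 3 lines, and *DNMT3B* (-0.72) lies below 0.

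Levels between genes were compared per kilobase of annotated exon. The summed level of the TET genes was 9.68 ± 0.456 CPM per kilobase in wild-type cells, 10.0 ± 0.724 without *AGO1*, 11.0 ± 0.745 without *AGO2*, 12.3 ± 0.950 without both and 22.3 ± 0.315 without all 3 (SD, n = 3 each). The make-up of this sum moved with it. *TET1* supplied 19.4%, 20.2% and 24.2% of it in the wild-type samples, 27.9%, 31.1% and 29.3% in the *AGO1/2* samples and 31.0%, 31.5% and 33.2% in the *AGO1/2/3* samples, with no overlap between wild-type cells and either line. *TET3* remained the largest contributor by this length, with 45.7% ± 1.82 in wild-type and 41.9% ± 0.968 in *AGO1/2/3* knockout cells (SD, n = 3). With the length of the canonical transcript, chosen after the values were seen, *TET2* was the largest in wild-type cells (44.7% against 38.6% for *TET3*) and the share of *TET1* went from 16.8% to 26.2%. The order of wild-type levels thus depends on which exons are used.

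**Figure D3:**
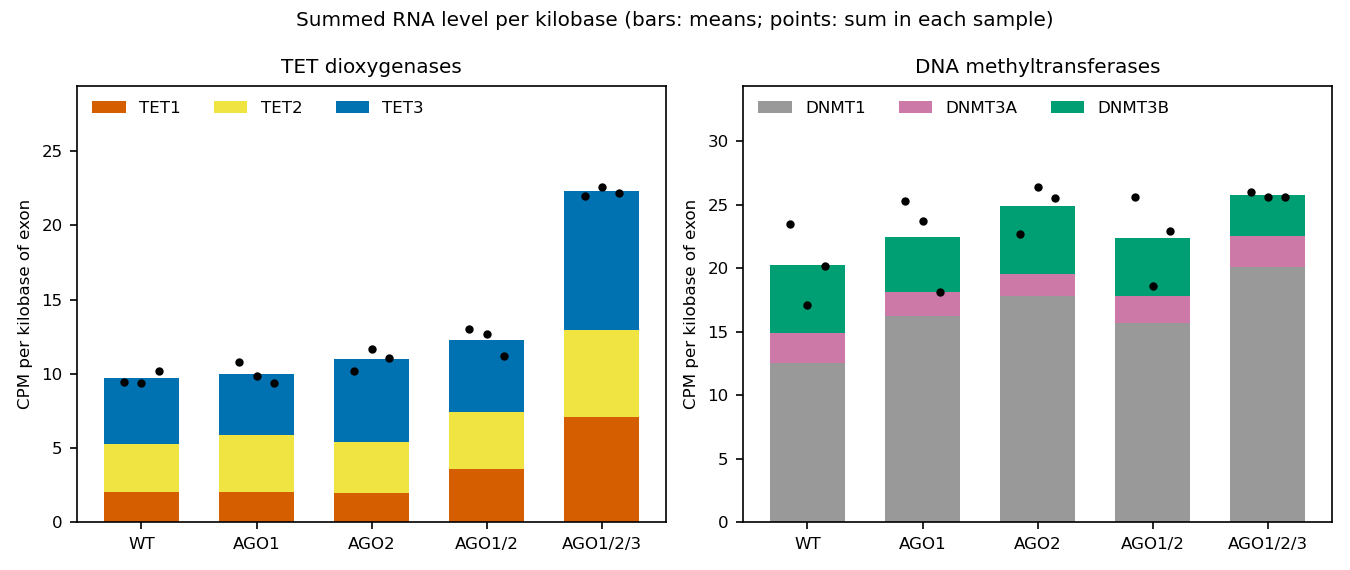
Summed level per kilobase of exon (vertical axis, from 0) of the 3 TET genes (left) and the 3 DNA methyltransferases (right) in the 5 lines, with bars of the mean of each gene stacked and a point for the sum in each sample. The TET sum is 22.3 in *AGO1/2/3* knockout cells against 9.68 in wild-type cells, while the methyltransferase sums overlap more between lines.

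*TDG*, the glycosylase that excises what the TET enzymes make, lies on chromosome 12 from 103965822 to 103988874 (plus strand, ENSG00000139372). Wild-type samples were at 32.0, 31.5 and 32.5 CPM (32.0 ± 0.537, SD, n = 3) and *AGO1/2/3* knockout samples at 45.0, 49.3 and 51.1 CPM (48.4 ± 3.14, SD, n = 3). The groups did not overlap, and the log2 change was 0.60 (SE 0.15, adjusted p = 0.00393, edgeR). *AGO1/2* knockout cells had 36.1, 29.4 and 26.5 CPM, around the wild-type values, and the difference of *AGO1/2/3* from them was 0.66 (adjusted p = 0.00407). *TDG* was at 34.9, 48.1 and 37.9 CPM in *AGO2* knockout cells and in *AGO1* knockout cells at 42.1, 34.5 and 30.1 CPM. Against *AGO2* knockout cells the difference of *AGO1/2/3* was not called (0.26, 95% interval -0.02 to 0.55).

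*MBD4*, the thymine glycosylase, lies on chromosome 3 from 129430947 to 129440179 (minus strand, ENSG00000129071). It had 20.8, 18.4 and 17.6 CPM in wild-type and 22.1, 23.4 and 26.0 CPM in *AGO1/2/3* knockout cells, a log2 change of 0.33 (SE 0.12, adjusted p = 0.0429, edgeR). The rise was small and the call was lost under 21 of 23 alternative settings. *IFT122*, a ciliary transport gene that overlaps *MBD4* on the opposite strand, went from a mean of 18.5 to 38.3 CPM in the same samples. The labels give a strand-specific kit, and whether reads of the overlap were shared between these genes was not tested. The other 3 lines held *MBD4* between 18.2 and 23.3 CPM.

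*MBD2*, the methyl-DNA reader, lies on chromosome 18 from 54151606 to 54224669 (minus strand, ENSG00000134046). It rose in both *AGO2* and *AGO1/2/3* knockout cells. Wild-type samples had 61.3, 53.0 and 68.0 CPM (60.8 ± 7.50, SD, n = 3), *AGO2* knockout samples 77.5, 93.4 and 86.6 CPM (85.8 ± 7.95) and *AGO1/2/3* knockout samples 83.1, 88.1 and 96.2 CPM (89.1 ± 6.57). The log2 changes were 0.50 (SE 0.12, adjusted p = 0.0108) and 0.55 (SE 0.12, adjusted p = 0.00134) with edgeR. The difference between these lines was 0.05, with a 95% interval from -0.17 to 0.28. *AGO1* knockout cells, at 67.1, 62.3 and 53.1 CPM, overlapped wild type, and *AGO1/2* knockout cells, at 75.1, 68.7 and 68.7 CPM, lay just above it without being called (0.22, adjusted p = 0.226). The call in *AGO2* knockout cells was lost without the second wild-type sample (0.38, adjusted p = 0.0662) and without *AGO2* sample 2 or 3.

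The writers moved apart from each other. *DNMT3B*, a *de novo* methyltransferase that is commonly raised in colorectal tumours, lies on chromosome 20 from 32762385 to 32809359 (plus strand, ENSG00000088305). Wild-type samples were at 37.0, 43.2 and 29.8 CPM (36.6 ± 6.72, SD, n = 3) and *AGO1/2/3* knockout samples at 20.9, 23.3 and 22.5 CPM (22.2 ± 1.22, SD, n = 3). All 3 *AGO1/2/3* samples lay below every sample of the other lines, which ran from 24.3 to 43.2 CPM. The log2 change was -0.72 (SE 0.17, adjusted p = 0.00289, edgeR), to 0.606 of the wild-type level. None of the other 9 genes was called lower in this line, and the 3′-UTR of *DNMT3B* holds an 8-base miR-29 match. Against *AGO2* knockout cells, at 31.7, 41.8 and 36.8 CPM, the difference was -0.73 (adjusted p = 0.00261). Against *AGO1/2* knockout cells, at 35.8, 24.5 and 33.5 CPM, it was -0.49 (adjusted p = 0.0471), a call lost under 11 of 23 alternative settings. *AGO1* knockout cells were at 32.3, 32.8 and 24.3 CPM, and the difference from them was not called (-0.42, adjusted p = 0.0559).

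*DNMT3A*, the other *de novo* methyltransferase, lies on chromosome 2 from 25227855 to 25342590 (minus strand, ENSG00000119772). It had 30.4, 36.0 and 33.4 CPM in wild-type cells (33.2 ± 2.83, SD, n = 3) and 40.5, 31.7 and 27.8 CPM in *AGO1/2/3* knockout cells (33.3 ± 6.51, SD, n = 3). These groups overlapped, and the 95% interval of the log2 change ran from -0.27 to 0.28. In *AGO2* knockout cells it was lower, at 26.0, 20.0 and 24.1 CPM (23.4 ± 3.10, SD, n = 3), with a log2 change of -0.51 (SE 0.14, adjusted p = 0.0228, edgeR). Without the second wild-type sample that value was -0.47 (adjusted p = 0.0628), and the call was also lost without *AGO2* sample 2 or 3. *AGO1* knockout cells, at 24.0, 26.1 and 28.9 CPM, lay below wild type without being called (-0.34, adjusted p = 0.163), and *AGO1/2* knockout cells were at 26.9, 30.9 and 30.8 CPM.

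*DNMT1*, the maintenance methyltransferase, lies on chromosome 19 from 10133342 to 10231286 (minus strand, ENSG00000130816), and *UHRF1*, its guide to replicated DNA, on the same chromosome from 4903080 to 4962154 (plus strand, ENSG00000276043). *DNMT1* had 245, 126 and 208 CPM in wild-type cells (193 ± 61.0, SD, n = 3) and 308, 307 and 312 CPM in *AGO1/2/3* knockout cells (309 ± 2.94, SD, n = 3). Its log2 change was 0.68 (SE 0.20, adjusted p = 0.0147, edgeR). *UHRF1* had 138, 55.4 and 133 CPM in wild-type cells (109 ± 46.5, SD, n = 3) and 195, 221 and 208 CPM in *AGO1/2/3* knockout cells (208 ± 13.2, SD, n = 3), with a log2 change of 0.93 (SE 0.30, adjusted p = 0.0198). In both genes the wild-type spread came from the second sample, which held the lowest value of all 15. Without it the log2 changes were 0.42 for *DNMT1* (adjusted p = 0.0662) and 0.59 for *UHRF1* (adjusted p = 0.067, edgeR), and neither was called. The *DNMT1* call was also lost without the third *AGO1/2/3* sample, and that of *UHRF1* without sample 2 or 3.

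Among the other lines *UHRF1* was called in *AGO2* knockout cells, at 198, 267 and 238 CPM (1.11, SE 0.30, adjusted p = 0.0206, edgeR). Without the second wild-type sample it was 0.76 (adjusted p = 0.0639), and without *AGO2* sample 2 or 3 the call was lost as well. *DNMT1* was at 249, 291 and 283 CPM in that line (0.51, adjusted p = 0.0906). *AGO1* knockout cells held *DNMT1* at 291, 263 and 192 CPM and *UHRF1* at 185, 146 and 94.6 CPM. *AGO1/2* knockout cells held them at 283, 197 and 243 CPM and at 194, 118 and 137 CPM. The sample that was low for one gene was low for the other, and the summed proliferation genes went the same way, with 3852, 3151 and 1723 CPM in *AGO1* and 4148, 2358 and 3097 CPM in *AGO1/2* knockout cells. That sum lay in *AGO2* knockout cells between 3901 and 4583 CPM, and in *AGO1/2/3* knockout cells between 4034 and 4254 CPM. The study also counted live cells and reports reduced growth, against wild type, in the *AGO2*, *AGO1/2* and *AGO1/2/3* lines, with the last the slowest. Growth of the *AGO1* line was reported as close to wild type. A higher sum of proliferation RNA therefore does not show faster growth. The part of cycling cells in the levels of *DNMT1* and *UHRF1* was not tested. Across the 15 samples the log2 levels of *DNMT1* and *UHRF1* had a Pearson correlation of 0.94, a description of samples that share lines and depth.

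**Figure D4:**
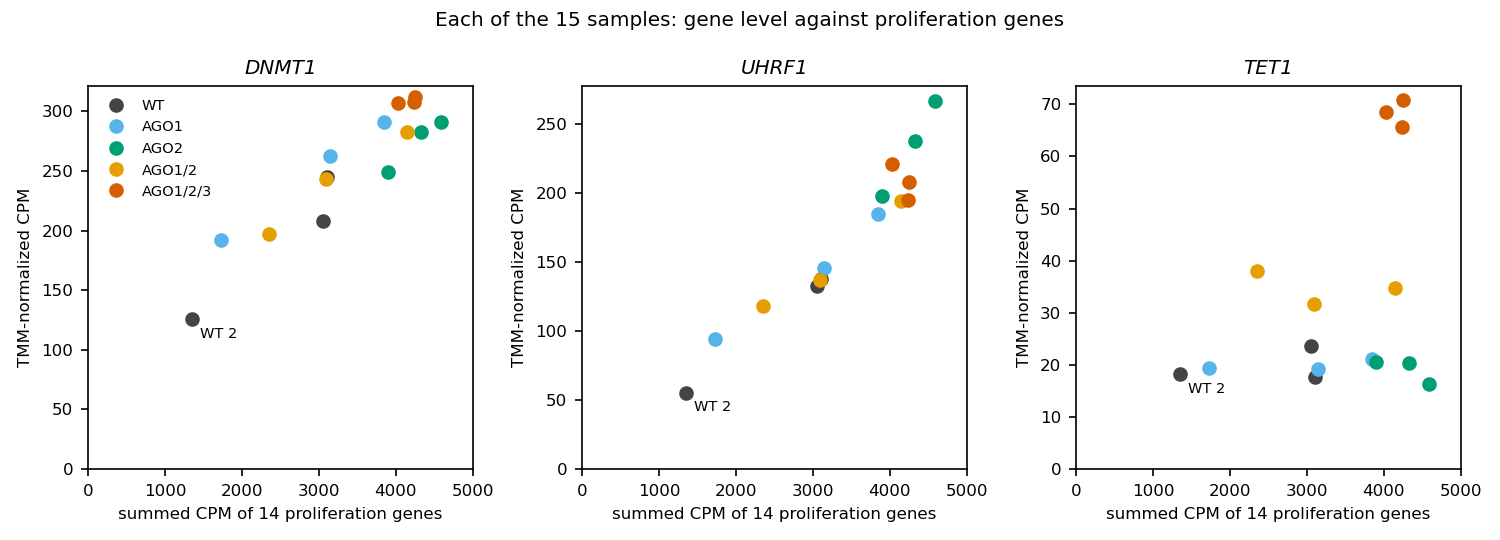
Level of *DNMT1*, *UHRF1* and *TET1* in CPM (vertical axes, from 0) against the summed level of 14 proliferation genes in CPM (horizontal axes), with a point for each of the 15 samples. *DNMT1* and *UHRF1* follow the sum, with the second wild-type sample (WT 2) at 1349 CPM lowest, whereas the *AGO1/2/3* samples of *TET1* (65.7 to 70.8 CPM) stand above *AGO2* samples with a like sum (16.4 to 20.6 CPM).

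The summed level of the 3 methyltransferases, *DNMT1* making up most of it, was 20.3 ± 3.22 CPM per kilobase in wild-type and 25.7 ± 0.222 in *AGO1/2/3* knockout cells (SD, n = 3). *DNMT3B* supplied 22.9%, 36.7% and 21.4% of it in the wild-type samples and 11.7%, 13.2% and 12.8% in the *AGO1/2/3* samples. The groups did not overlap, and the highest of the 6 shares was again that of the second wild-type sample. In wild-type cells *UHRF1* had the highest level per kilobase (21.2 ± 9.03), before *DNMT1* (12.5 ± 3.96) and *MBD2* (10.7 ± 1.32), and *TET1* (2.07 ± 0.349) and *DNMT3A* (2.41 ± 0.205) the lowest (SD, n = 3 each). The wild-type samples of *UHRF1*, *DNMT1* and *MBD2* overlapped, as did those of *MBD4* and *DNMT3B*, of *DNMT3B* and *TET3*, and of *DNMT3A* and *TET1*. With canonical transcript lengths *DNMT1* (36.6) came before *UHRF1* (27.9).

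The calls among the 10 genes were also counted by line, beside the share over all genes tested. With 10 genes, the numbers called in *AGO1*, *AGO2* and *AGO1/2* knockout cells lay near that share. In *AGO1* knockout cells 0 of 10 were called by edgeR, where 8.68% of all genes tested were (3.17% higher and 5.50% lower). At an unadjusted p under 0.05 edgeR gave 1 higher (*TET2*) and 1 lower (*DNMT3A*) there, and DESeq2's Wald test called 1, *TET2*, higher. In *AGO2* knockout cells 2 were higher (*UHRF1* and *MBD2*) and 1 lower (*DNMT3A*), where 8.55% and 10.8% of all genes tested were called. In *AGO1/2* knockout cells 2 were higher (*TET1* and *TET2*) and 0 lower, where 8.37% and 8.35% were called. None was lower there at an unadjusted p under 0.05 or with DESeq2 either. The replicates of 1 gene lay wholly above and of 1 wholly below wild type in *AGO1* knockout cells, where 10.2% and 12.9% of all genes did. These counts were 6 and 1 in *AGO2* (18.5% and 18.6%), 3 and 0 in *AGO1/2* (15.5% and 14.3%) and 8 and 1 in *AGO1/2/3* knockout cells (26.3% and 23.8%). The median log2 changes of the 10 in the first 3 knockout lines were 0.03, 0.26 and 0.20, against -0.01, -0.02 and 0.01 over all genes tested. These comparisons share the wild-type samples.

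Between knockout lines, 5 of the 10 genes were called for *AGO1/2/3* against *AGO1/2* knockout cells, where 22.0% of all genes tested were. Those were *TET1*, *TET2*, *TET3* and *TDG* (higher) and *DNMT3B* (lower). Against *AGO1* knockout cells 5 were called (background 40.6%), with *MBD2* in place of *DNMT3B*, and against *AGO2* knockout cells 5 (background 40.3%), the TET genes and *DNMT3A* higher and *DNMT3B* lower. *TET1* alone separated *AGO1/2* knockout cells from *AGO1* (0.81, adjusted p = 0.000265, background 19.5%) and from *AGO2* knockout cells (0.87, adjusted p = 0.000169, background 23.9%). *TET3* (0.46, adjusted p = 0.019, edgeR) and *MBD2* (0.50, adjusted p = 0.00858) were higher in *AGO2* than in *AGO1* knockout cells. There 2209 of 22842 genes tested were called higher and 1995 lower. These calls of *TET3* and *MBD2* were lost under 5 and 3 of 22 alternative settings. All 3 TET genes were thus higher in *AGO1/2/3* knockout cells than in every other line. The change that went with loss of *AGO1* was also compared between cells with and without *AGO2*. This difference was called in 2 of 10 genes, *TET1* (0.86) and *DNMT3A* (0.67), close to the 19.7% of all genes tested. The 9 differences of the TET genes between *AGO1/2/3* and the other knockout lines kept their call and direction under every alternative setting run. So did the 3 from wild-type cells. In *AGO1/2/3* knockout cells the call of *TDG* against *AGO1* was lost under 5 of 23 settings. That of *DNMT3A* against *AGO2* was lost under 1 of 22, and that of *DNMT3B* against *AGO1/2* under 11 of 23.

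Among all protein-coding genes tested, 35.7% of those with at least 1 miR-29 match and 25.1% of those with 0 were called higher in *AGO1/2/3* knockout cells, and 17.0% and 22.5% were called lower. Their median log2 changes were 0.14 and 0.02. The UTRs of the first set were longer, with a median of 3049 against 1274 bases, and the part of UTR length was not tested. Among the 6 of the 10 genes with a match, 4 were higher, 1 lower and 1 not called (median 0.73). The 4 without a match were all called higher (median 0.62). Without the second wild-type sample *DNMT1*, *UHRF1* and *MBD4* of these were not called, while the 4 higher genes with a match were. For *AGO1/2/3* against *AGO1/2* knockout cells, 4 of the 6 were higher and 1 lower. Of 22842 genes tested, 2720 were called higher and 2295 lower in that comparison. The 4 without a match were not called there, with *MBD2* at 0.33 (adjusted p = 0.0524, edgeR). Against *AGO1* knockout cells 4 of the 6 and 1 of the 4 were higher, where 4969 of 22842 genes tested were called higher. Against *AGO2* knockout cells 4 of the 6 were higher and 1 lower, and 0 of the 4 were called. Of 22842 genes tested, 4867 were called higher and 4328 lower there. The 4 higher genes were not the same, as *DNMT3A*, low in *AGO2* knockout cells, was called in place of *TDG* (0.26, not called). From wild-type cells, *TET3* with 10 matches, *TET1* with 3 and *DNMT3A* with 4 had log2 changes of 1.08, 1.78 and 0.00. The number of matches did not order the changes of these genes.

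**Figure D5:**
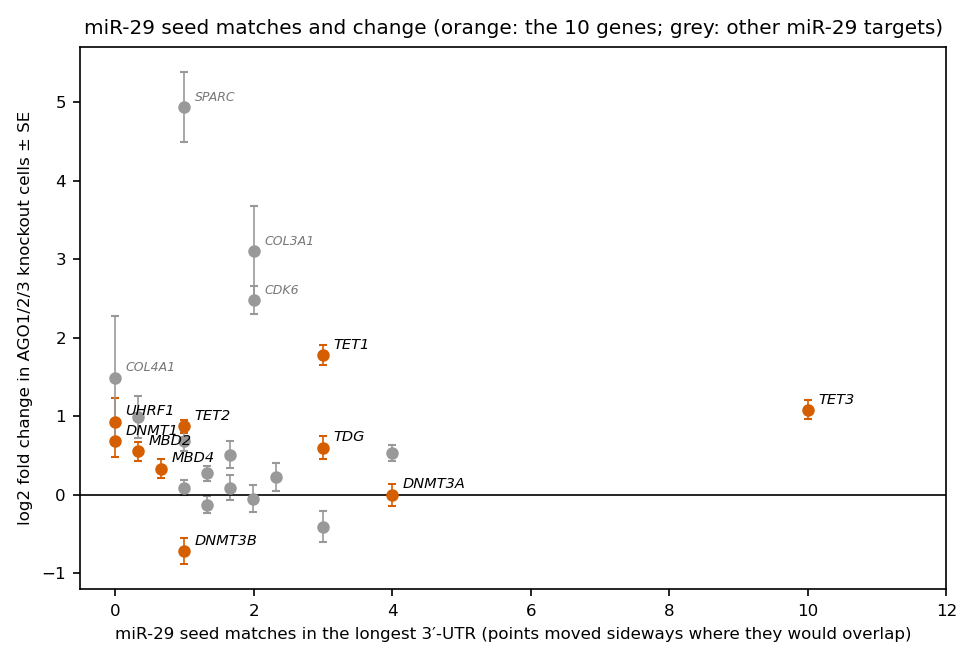
Log2 fold change in *AGO1/2/3* knockout cells (vertical axis, bars of 1 standard error) against the number of miR-29 seed matches in the longest 3′-UTR (horizontal axis, points moved sideways where they would overlap) for the 10 genes (orange) and 15 other known miR-29 targets (grey, named where the change exceeds 1.2). *TET3* stands alone at 10 matches, and genes with 1 match run from *DNMT3B* at -0.72 to *SPARC* at 4.94.

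Of 15 other known miR-29 targets tested, 7 were called higher in *AGO1/2/3* knockout cells (median 0.51), beside 20.3% of all genes tested. With edgeR, with DESeq2 or at an unadjusted p under 0.05, 0 were lower, where edgeR called 19.8% of all genes lower. *CDK6*, a cyclin-dependent kinase of the G1 phase, rose from 161 ± 33.1 to 899.9 ± 69.1 CPM (log2 change 2.48, adjusted p = 5.9e-08). *SPARC*, a secreted matrix protein, rose from 1.69 ± 0.608 to 52.3 ± 0.998 CPM (4.94, adjusted p = 5.39e-07, edgeR, n = 3 each). *FBN1*, which encodes fibrillin, went from 2.49 to 4.95 CPM and was called (0.99), while the collagen gene *COL3A1* was called at mean levels of 0.0520 and 0.472 CPM, which are a few reads. In *AGO1*, *AGO2* and *AGO1/2* knockout cells 2, 2 and 1 of the 15 were higher and 2, 2 and 2 lower. Of all genes tested, 3.17%, 8.55% and 8.37% were called higher in these lines and 5.50%, 10.8% and 8.35% lower. *SPARC* itself was lower in *AGO2* knockout cells (-3.08, adjusted p = 0.00615) and higher in *AGO1/2* knockout cells (2.62, adjusted p = 0.000664).

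Of 10 tested partners of the writers, 1 was higher and 2 lower in *AGO1/2/3* knockout cells (median 0.06), beside 20.3% and 19.8% of all genes tested. *TRDMT1*, a DNMT relative that methylates transfer RNA, rose from 17.0 ± 0.779 to 37.3 ± 0.712 CPM (1.13, adjusted p = 9.43e-07). Both lower genes serve the supply of methyl groups. *MAT2A*, which makes the methyl donor S-adenosylmethionine, went from 308 ± 50.2 to 219.5 ± 17.4 CPM (-0.49, adjusted p = 0.00839), and *AHCY*, which clears its product, from 225 ± 54.0 to 135 ± 8.08 CPM (-0.73, adjusted p = 0.000622, edgeR, n = 3 each). In *AHCY* the second wild-type sample, at 162 CPM, was nearest to the knockout values, against 252 and 259 CPM in the others.

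Of 10 other readers, 5 were higher and 1 lower (median 0.23), beside 20.3% and 19.8% of all genes tested. *ZBTB4* (42.7 to 104 CPM, 1.29) and *ZBTB38* (64.0 to 144 CPM, 1.17), zinc finger proteins that bind methylated DNA, were among those that rose, as were *MBD1* (0.36) and *BAZ2A* (0.29). *MBD6*, a relative of the MBD proteins, fell from 38.5 to 15.6 CPM (-1.30, adjusted p = 0.000922). It was called lower in *AGO2* (-1.25) and *AGO1/2* knockout cells (-1.08) too, in the latter with replicates that overlapped wild type. *ZBTB4* (0.57), *ZBTB38* (0.39) and *BAZ2A* (0.49) were also called higher in *AGO1/2* knockout cells.

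Of 17 genes of demethylation and base excision repair beside *TDG* and *MBD4*, 1 was higher and 4 lower (median -0.10), against 20.3% and 19.8% of all genes tested, so neither share stood far above the background. *GADD45B*, a stress-induced factor linked to demethylation, rose from 18.5 to 34.0 CPM (0.88, adjusted p = 0.00359), whereas its relative *GADD45A* was called lower (-0.86, adjusted p = 0.0373) with replicates that overlapped. Wild-type samples of *GADD45A* were at 54.0, 92.6 and 35.3 CPM, and without the second the change was -0.45 and not called (adjusted p = 0.22, edgeR). *OGT*, a glycosyltransferase that binds TET proteins, was lower (352 to 191 CPM, -0.88, adjusted p = 0.00467), with wild-type samples at 305, 509.5 and 241 CPM, and -0.55 without the second (adjusted p = 0.0173, edgeR). Also lower were the ligase *LIG3* (-0.36) and the glycosylase *NEIL2* (-0.46). The replicates of *NEIL2* overlapped wild type, and it was called higher in *AGO2* knockout cells (0.70). The other 12 were not called. In *AGO2* knockout cells 2 were higher and 3 lower (8.55% and 10.8% of all genes). In *AGO1* and *AGO1/2* knockout cells 2 and 3 were lower (5.50% and 8.35% of all genes), and 0 were higher with edgeR, with DESeq2 or at an unadjusted p under 0.05.

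Germline genes, whose promoters are commonly silenced by DNA methylation, were nearly all at background. Only 2 of 11 passed the filter, and the 1 called, *MAGEB2*, was already at 83.5 CPM in wild-type cells and rose to 126 CPM in *AGO1/2/3* knockout cells (0.60, adjusted p = 0.00407). DNA methylation itself was not measured in these samples. Of 14 proliferation genes, 4 were called higher in *AGO1/2/3* knockout cells, beside 20.3% of all genes tested. These were *TOP2A* (1.07), *E2F1* (0.99), *CCNA2* (0.97) and *MKI67* (0.93), against wild-type values that include the low second sample. Without it *MKI67* (0.67) and *CCNA2* (0.66) were not called, and *E2F1* was at 0.59.

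The genes around each of the 10 were read as well. The other genes tested within 5 Mb of each had median log2 changes between -0.14 and 0.16 in all 4 lines. Around *TET1* the 95 neighbours had a median of 0.04 in *AGO1/2/3* and of 0.03 in *AGO1/2* knockout cells. Around *DNMT3B* it was 0.03 over 113 neighbours in *AGO1/2/3* knockout cells. Narrower windows gave other values, and within 2 Mb the median was 0.21 over 44 neighbours of *TET1* (17 called higher and 7 lower) and -0.26 over 17 neighbours of *TET2* in *AGO1/2/3* knockout cells. In *AGO1/2* knockout cells 10 of the 44 neighbours of *TET1* were higher and 1 lower (median 0.02). The annotated pseudogenes *TET1P1*, *TDGP1* and *DNMT3AP1*, copies with which reads could be shared, were at no more than 0.0701 CPM in any sample.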

How the data were processed

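RNAseq of the 15 samples was used, and the 8 eCLIP samples were not analysed here. For each sample the authors deposited estimated counts per gene (expected counts), not normalized for depth. The submitters' processing notes name STAR 2.5.3a, Salmon 0.11.0, DESeq2 and hg38, and per the labels the library kit was strand specific. The file headers of the *AGO2* knockout samples name another quantification mode, and mode and genotype cannot be told apart. The share of values that were not whole ran from 30.8% to 33.8% per sample, and all were rounded. Every line of the files names a gene, and 0 of 105 sample pairs were identical.

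Groups came from the genotype labels. Counts were filtered with edgeR's filterByExpr, normalized by TMM, and fitted with edgeR 4.0.16 in R 4.3.3 as a mean per line over all 15 samples (common biological coefficient of variation 0.152). Contrasts were tested by quasi-likelihood in edgeR, p-values were adjusted by Benjamini-Hochberg over 22842 genes, and the threshold was 0.05. The threshold is the one in the study's methods, which use DESeq2; DESeq2 1.42.0 was an alternative. The fit was tested on 10 simulated data sets, for *AGO1/2/3* against wild-type cells. It called 66 to 86 of 100 changes of 2-fold and 97 to 100 of 100 changes of 4-fold. Of the genes called, 4.04% had not been changed. Intervals are approximate 95% intervals, a normal multiple of a standard error derived from the quasi-likelihood F statistic. They are somewhat narrower than the quasi-likelihood test itself would give. Log2 levels used a prior count of 2.

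Symbols, positions, exon lengths and 3′-UTRs came from GENCODE v44 (57167 of 57875 genes matched); the release behind the deposited counts was not settled. Tables and matches used Python 3.11.15, numpy 2.4.6 and pandas 2.3.3.

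The 10 genes and the lists of partners, targets and markers were chosen with earlier results of these data known. All 10 genes are named. From each list the 4 genes with the largest change among those called in *AGO1/2/3* knockout cells, without overlap of the replicates, are named, and others were added after their values were seen. The values of 1 gene of these lists are not reported here. Alternatives were other normalizations, tests, filters and sample sets, the replicate number as a block, and each sample left out in turn.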

Additional observations from a re-analysis of the deposited data

Results flagged for a closer look

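For 2 of the 10 genes the change that went with the loss of *AGO1* differed between cells with and without AGO2, tested as the *AGO1/2* minus *AGO2* difference less the *AGO1* minus wild-type difference on the log2 scale in the same edgeR model. The difference was 0.86 for *TET1* (standard error 0.18, adjusted p = 0.00348) and 0.67 for *DNMT3A* (standard error 0.20, adjusted p = 0.0268). Called genes made up 19.7% of all genes tested, so that 2 of 10 lay at that share. For *TET1* the means were 19.9, 19.9, 19.1 and 34.8 CPM in wild-type, *AGO1*, *AGO2* and *AGO1/2* knockout cells. All 3 *AGO1/2* samples lay above the 9 others. The call held in 21 of 21 alternative settings, with values from 0.72 to 0.98. For *DNMT3A* the means were 33.2, 26.3, 23.4 and 29.5 CPM, so that both single knockouts lay below the double knockout. That call was lost in 5 of 21 settings, each without 1 sample of the *AGO1*, *AGO2* or *AGO1/2* lines, with values from 0.57 to 0.79. Each genotype is 1 line, and differences between lines and between genotypes cannot be told apart. The *AGO2* knockout samples, whose file headers name another quantification mode, enter both values.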

How the results depend on the processing

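In *AGO1/2/3* knockout cells *TET1*, *TET2*, *TET3*, *TDG*, *MBD2* and *DNMT3B* kept their direction and call in all 23 alternatives, with log2 changes of 1.64 to 1.90, 0.73 to 0.87, 0.94 to 1.08, 0.45 to 0.63, 0.41 to 0.61 and -0.88 to -0.62, as did *TET1* in *AGO1/2* knockout cells (0.72 to 0.94). The cause of the changes that follow was not tested. Total counts in place of TMM moved the median of all genes tested in *AGO1/2/3* knockout cells from -0.01 to -0.15 and their calls from 4644 higher and 4522 lower to 3459 and 5962.

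The median log2 change of the 10 genes in *AGO1/2/3* knockout cells, 0.64, was 0.57 with at least 10 counts in every sample, 0.58 with the 6 samples compared alone, 0.50 with total counts, and 0.50 to 0.71 with 1 sample left out. The 8 genes called higher there became 5 without wild-type sample 2 or without *AGO1/2/3* sample 3, and 5 to 8 with any 1 sample left out. Over all genes tested, the 4644 of 22842 called higher there became 4143 of 23407 and 3624 of 23484 without these samples. In *AGO1/2* knockout cells 1 gene in place of 2 was called higher without the *AGO2* line, with DESeq2's size factors, at least 10 counts, no filter, the 6 samples, total counts or a replicate block, and 1 to 2 with a sample left out. In *AGO2* knockout cells the 2 called higher became 4 without a filter, 0 with the 6 samples and 0 to 3 with a sample left out. The 1 called lower became 0 with the 6 samples and 0 to 1 with a sample left out. Over all genes tested, the 1952 of 22842 called higher there became 2588 of 42905 without a filter and 528 of 21757 with the 6 samples. In *AGO1* knockout cells DESeq2's Wald test and at least 10 counts each gave 1 called higher, and leaving out a sample 0 to 1. For *AGO1/2* against *AGO2* knockout cells 1 called gene became 2 with DESeq2's Wald test, 3 without a filter, 2 with the 6 samples and 1 to 2 with a sample left out, and for *AGO2* against *AGO1* 2 became 1 with the 6 samples and 0 to 3. Of the 6 genes with a miR-29 match, 3 held an 8-base match.

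The lists of partners, readers, repair, germline, miR-29 and proliferation genes held 10, 10, 17, 2, 15 and 14 that passed the filter. Of these lists, 10 genes were called higher in *AGO2* knockout cells. That count was 18 with DESeq2's Wald test, 26 without a filter and 0 with the 6 samples. It was 5 with total counts and 0 to 18 with a sample left out. Over all genes tested the count was 1952 of 22842, 2555 of 42905 with DESeq2's Wald test and 2588 of 42905 without a filter. With the 6 samples it was 528 of 21757, with total counts 733 of 22842, and with a sample left out 389 to 2612. Of the lists, the 2 higher in *AGO1* became 1 with DESeq2's Wald test, at least 10 counts or the 6 samples. The 5 of the lists higher in *AGO1/2* became 3 with the 6 samples. The lower calls of the lists in *AGO1* (4) became 2 with the 6 samples and 2 to 5 with a sample left out. Those in *AGO1/2* (6) became 3 and 3 to 8, and those in *AGO1/2/3* (7) became 12 with total counts. Those in *AGO2* (6) became 12 with total counts and 3 to 9 with a sample left out. Over all genes tested, lower calls went with the 6 samples from 1257 to 439 in *AGO1* and from 1907 to 1189 in *AGO1/2*. With total counts they went from 2456 to 3593 in *AGO2* and from 4522 to 5962 in *AGO1/2/3* knockout cells.

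Values near 0 that were not called changed sign. *DNMT3A* in *AGO1/2/3* knockout cells (0.00) was -0.01 with DESeq2's Wald test or size factors, -0.06 with at least 10 counts, -0.02 without a filter, -0.05 with the 6 samples, -0.14 with total counts and -0.18 to 0.08 with a sample left out. *DNMT3B* in *AGO2* (0.01) was -0.04 with at least 10 counts, -0.00 with the 6 samples, -0.12 with total counts and -0.15 to 0.11. With total counts *MBD2* (-0.09), *MBD4* (-0.03) and *TET1* (-0.08) in *AGO1* and *TET2* in *AGO2* knockout cells (-0.03) were below 0. With a sample left out the first 3 ran from -0.09 to 0.11, -0.04 to 0.15 and -0.07 to 0.15, *TDG* in *AGO1/2* from -0.22 to 0.03 and *TET1* in *AGO2* from -0.15 to 0.06.

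The replicate numbers only name samples. Deviations of samples with the same number correlated between -0.218 and 0.291, with a mean of -0.00669, against 0.00333 for different numbers. With the replicate block *TET2* in *AGO1/2* (0.25, adjusted p = 0.0609, edgeR), *MBD4* in *AGO1/2/3* knockout cells (0.33, adjusted p = 0.0616) and *DNMT3B* between those lines (-0.50, adjusted p = 0.0573) were no longer called, and no other call of the 10 genes changed. TPM levels were not run. Depth was 27709971 counts or more in each sample, and the spread of 3 samples per line limits the small changes.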
